A study of Arabidopsis thaliana with 10 samples.

Results

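Leaves of the ethylene-insensitive mutant ein2 at growth stage 6.0 were compared with green leaves of wild type Arabidopsis thaliana at stage 3.9. The comparison takes the 2 arrays whose source is Ein2 and the 2 wild type arrays of stage 3.9, which are 4 of the 10 Affymetrix arrays of the series. Stage 3.9 is commonly the fully grown rosette and stage 6.0 the opening of the first flower. By its title the study concerns senescence in stress response mutants, and the contrast asks which changes with age still occur in a leaf that cannot respond to ethylene. RNA came from fully expanded leaves of plants on compost at 18 °C with a 12 h day and no treatment. Green array 1 carries the Col-0 wild type of stock N933 and green array 2 the Col-5 wild type of stock N1644, so the spread of the green group includes any difference between the stocks. Both ein2 arrays carry stock N3071 in the Columbia background, with the word transgenic in the labels but no allele, and the coi1 arrays of the series bear that stock code too. The labels do not say whether the ein2 arrays came from separate plants, so the spread between them may be technical. Genotype and stage differ together between the groups, and their effects cannot be told apart.

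Ethylene is a gaseous hormone that hastens leaf senescence. Its receptors hold the kinase CTR1 active until the hormone binds; EIN2, a protein of the endoplasmic reticulum, then passes the signal to the nucleus, where EIN3 and related factors switch on target genes such as defensins of the PDF family. Plants without EIN2 function do not respond to ethylene and are known for delayed leaf yellowing. A senescing leaf takes down its photosynthetic apparatus, exports nitrogen and sugars, and often accumulates anthocyanin.

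Scaled signals had to reach 50 on at least 2 of the 10 arrays, which left 12184 probe sets to test, and 6452 of them name exactly 1 gene. A gene is called measured where a probe set that names it alone was tested. The array has 8730 probe sets that name no gene here and may cover other members of a list. Differences were fitted with limma on log2(signal + 16), values after ± are standard errors, and a probe set passed at a Benjamini-Hochberg adjusted p under 0.05. The 4 arrays compared had 9829 to 10835 probe sets at 50 or above. Across probe sets the correlation was 0.941 within the green pair and 0.966 within the ein2 pair, against 0.735 to 0.772 between the groups. For the ubiquitin control the ratio of 3' to 5' signal was 2.12 and 2.24 on the green arrays and 1.45 and 1.52 on the ein2 arrays, and that of actin was 2.43 and 2.70 against 2.06 and 1.95. For GAPDH the ratio was 0.974 and 0.958 on the green arrays and 1.13 and 0.928 on the ein2 arrays, so this control did not separate the groups. The part of the ubiquitin and actin differences in the results was not tested. The probe set of EIN2 is unnamed here, so the mutated gene was not checked. Of the mesophyll markers PSAN and RCA were measured, and their summed signal was 9194 and 7044 on the green arrays and 2645 and 2468 on the ein2 arrays. Markers of other cells were few: GIS of trichomes and PRL of dividing cells fell (-0.79 ± 0.24 and -1.03 ± 0.26 log2), while SWEET11 of the phloem (0.35 ± 0.31), GUT2 of the xylem (-0.47 ± 0.18) and PYK10 of the root (0.52 ± 0.25) did not pass. Of these, the calls of 2 rest on single arrays: GIS without green array 2 or ein2 array 2 (adjusted p from 0.179 to 0.2, log2 difference -0.50 without green array 2) and PRL without green array 2 or ein2 array 2 (adjusted p from 0.0564 to 0.086) were lost, and SWEET11 passed without green array 2 (adjusted p = 0.0323). Guard cell and floral markers had no tested probe set. In RNA from whole leaves, fewer cells of a type and less RNA per cell cannot be told apart.

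Anthocyanin synthesis, autophagy, nitrogen recycling and dehydrin transcripts stood higher in the ein2 leaves of stage 6.0 than in green wild type, and transcripts for the photosystems, the Calvin cycle and chlorophyll synthesis stood lower. By the medians of the gene lists, the NahG and coi1 leaves of stage 6.0 described below differed from green wild type in the same directions. In all, 2242 probe sets rose (18.4%) and 1963 fell (16.1%). All 4205 of them separate the groups without overlap, as did 65.6% of all tested probe sets. A change of at least 1 on the log2 scale was reached by 1117 that rose and 1098 that fell, and one of at least 3 by 55 and 78. Among the 6414 tested genes, counted with 1 probe set each, 17.3% rose and 15.2% fell, and the median log2 difference was 0.06. The gene lists below were chosen with earlier results of these data known, so their counts beside these shares are a description. The counts depend on the scaling: set to the hybridisation controls, the median of all probe sets moves from 0.06 to 0.46 and 1809 rose and 447 fell. The geometric mean of these controls was 440 and 411 on the green arrays and 267 and 342 on the ein2 arrays. The controls thus differed within the ein2 group as well as between the groups. On that scaling 7 of 8 photosystem genes and 6 of 10 chlorophyll synthesis genes fell, and RCA, ATPC1 and HPR did not pass. Leaving out ein2 array 2 left 1337 that rose and 1274 that fell.

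**Figure D1:**
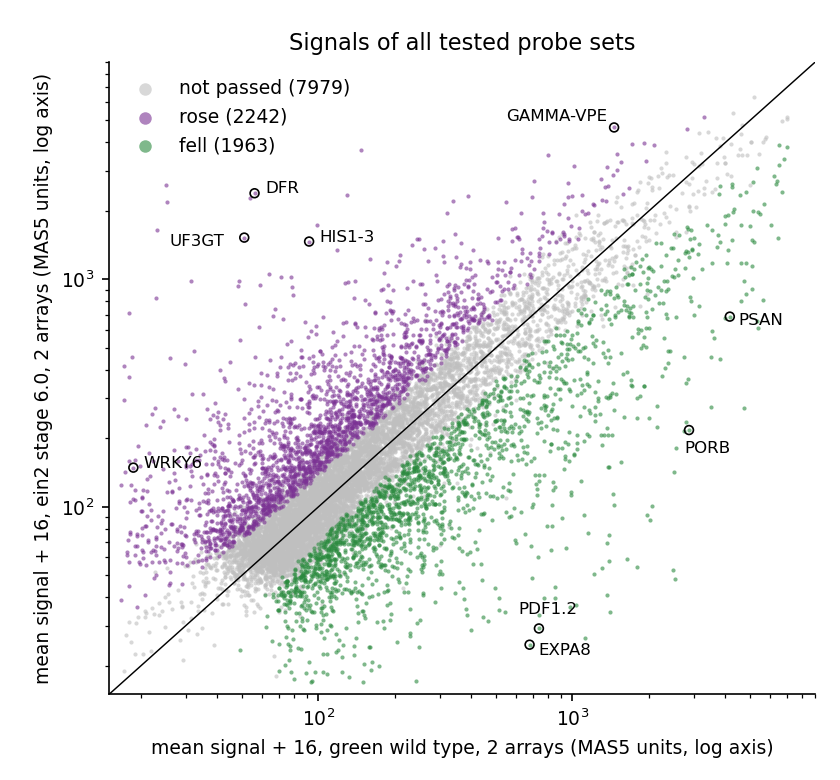
Mean signal plus 16 of each tested probe set in green wild type (x axis) and ein2 at stage 6.0 (y axis), in MAS5 units on log axes, 2 arrays a group. Purple points rose, green points fell, grey points did not pass, and the line marks equal signals; DFR lies at means of 40.0 and 2377, PORB at 2861 and 202.

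Anthocyanin synthesis had the highest median of the lists: 4 of its 5 measured genes rose and 0 fell, where 17.3% of all tested genes rose. DFR, the dihydroflavonol reductase that commits the pathway to anthocyanin, gave signals of 30.5 and 49.6 on the green arrays and 2318 and 2435 on the ein2 arrays. It was near the background in green leaves and among the brighter probe sets in ein2, with a log2 difference of 5.44 ± 0.21 (limma adjusted p = 1.88e-07). UF3GT, a glycosyltransferase of anthocyanins, went from 26.2 and 43.8 to 1411 and 1611 (4.92 ± 0.24). CHIL, a chalcone isomerase-like protein that raises flavonoid production, went from 4.64 and 7.56 to 232 and 248 (3.54 ± 0.24). UGT78D2, a flavonoid glucosyltransferase, went from 40.1 and 73.4 to 669.5 and 642 (3.24 ± 0.22). On each of these probe sets the ein2 arrays lay far apart from the green arrays and close to each other. UGT78D1, the rhamnosyltransferase of flavonols, stood at 57.0 and 75.7 and 51.4 and 41.9 and did not pass (-0.39 ± 0.28). The list median was 3.54, against 0.06 for all tested genes.

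Transcripts of the photosynthetic apparatus fell: all 8 measured photosystem and antenna genes of the nucleus, all 4 of the Calvin cycle list and 9 of 10 of chlorophyll synthesis, where 15.2% of all tested genes fell. These lists hold 46, 23 and 30 genes in the annotation, and their other members were not measured. PSAN, a subunit of photosystem I, gave 4817 and 3481 on the green arrays and 591 and 749 on the ein2 arrays (-2.59 ± 0.20; limma adjusted p = 7.27e-06). PSAE-1, another photosystem I subunit, went from 6002 and 4376 to 1456 and 1440.3 (-1.81 ± 0.21). Among the genes of the antenna protein CP29, LHCB4.2 went from 4915 and 2050.2 to 489 and 392 (-2.81 ± 0.33). Its green arrays differ from each other more than its ein2 arrays do, and every green value exceeds every ein2 value. LHCB4.1, from 5912 and 5019 to 1801 and 2031, changed by -1.50 ± 0.22, and LHCB4.3, from 655 and 1307 to 260.0 and 265, by -1.76 ± 0.27. PSBW, a photosystem II subunit, had the smallest change of the list, at 4873 and 4222 against 1985 and 2682 (-0.97 ± 0.24). PSBY of photosystem II changed by -1.77 ± 0.19 and AT4G01150, which the annotation names CURVATURE THYLAKOID 1A, by -1.41 ± 0.18. The list median was -1.76.

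The 4 measured genes of the Calvin cycle list had a median of -1.31. SBPASE, the sedoheptulose bisphosphatase, gave 2816 and 3115 in green leaves and 1033 and 963 in ein2 (-1.56 ± 0.19), and PRK, phosphoribulokinase, gave 2998 and 3470.3 and 1151 and 1030.4 (-1.55 ± 0.19). RCA, the activase of Rubisco, went from 4378 and 3562 to 2055 and 1719 (-1.07 ± 0.22), and the triose phosphate isomerase gene TPI changed by -0.56 ± 0.19. The list holds TPI beside a separate entry, PDTPI, and whether TPI itself acts in the cycle is not given here. For SBPASE, PRK, RCA and TPI every green value exceeds every ein2 value, as for every probe set that fell. Groups without overlap were found in 65.6% of all tested probe sets. ATPC1, the gamma subunit of the chloroplast ATP synthase, went from 3892 and 4031 to 1823 and 1666 (-1.18 ± 0.18), and HPR, the hydroxypyruvate reductase of photorespiration, from 3115 and 3612 to 1777 and 1656 (-0.96 ± 0.17). PGRL1B, of cyclic electron flow, did not pass (0.25 ± 0.17). The calls of PSBW without ein2 array 1 (adjusted p = 0.0807) and TPI without green array 2, ein2 array 1 or ein2 array 2 (adjusted p from 0.123 to 0.186) were lost.

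Chlorophyll synthesis had the lowest median of any list with more than 3 tested genes, at -2.11. PORB, the light-dependent protochlorophyllide reductase, gave 3533 and 2189 on the green arrays and 224 and 179 on the ein2 arrays. Its green arrays are the brighter by far and the groups do not approach each other (-3.69 ± 0.26; limma adjusted p = 3.77e-06). CHLI2, a subunit of magnesium chelatase, went from 246 and 335 to 29.0 and 40.8 (-2.58 ± 0.35). CHLM, the methyltransferase that follows magnesium insertion, went from 1079.5 and 914 to 158 and 149 (-2.57 ± 0.19). HEME1 and HEME2, uroporphyrinogen decarboxylases earlier in the pathway, changed by -2.14 ± 0.21 and -2.13 ± 0.16, and HEMB1, the aminolevulinate dehydratase, by -1.41 ± 0.17. GSA1, an aminotransferase near the start of the pathway, changed by -0.98 ± 0.21. LIL3:1 and LIL3:2, light-harvesting-like proteins that bind chlorophyll intermediates, changed by -2.10 ± 0.27 and -1.11 ± 0.18. HEMA2, a glutamyl-tRNA reductase, gave 50.4 and 41.4 and 54.6 and 61.9 and did not pass (0.26 ± 0.18). NOL, a chlorophyll b reductase and the measured gene of chlorophyll breakdown, gave 188 and 169 in green leaves and 205 and 229 in ein2 and did not pass either (0.26 ± 0.18).

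**Figure D2:**
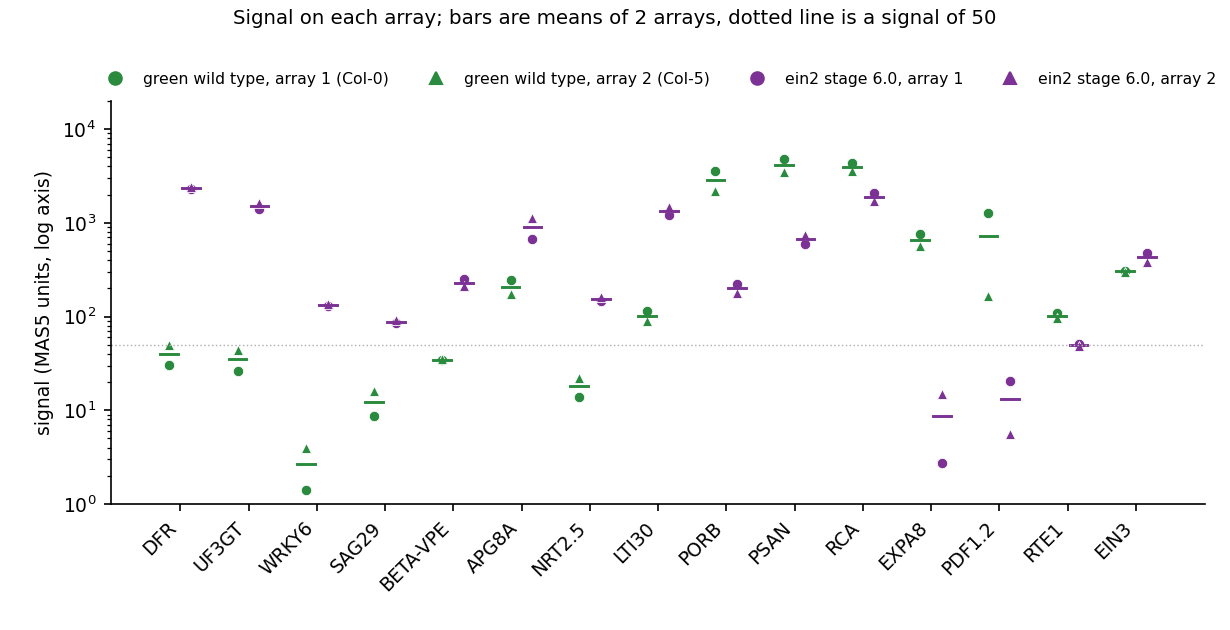
Signal of 15 named genes on each array, in MAS5 units on a log axis, with circles for array 1 and triangles for array 2 of green wild type (green) and ein2 (purple) and bars for group means. The arrays of a group lie close together for DFR, BETA-VPE and RTE1, and far apart for PDF1.2 in green wild type, at 1277 and 167.

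Plastid-encoded transcripts lay lower in ein2 than in green leaves, but the 2 ein2 arrays disagree on how much. The plastid genome had 69 tested genes, of which 25 fell and 0 rose, where 15.2% of all tested genes fell, and their median was -0.79. The groups did not overlap in 53 of the 69, and in 65.6% of all tested probe sets. The median signal over these genes was 1884 and 1551 on the green arrays and 1175 and 627 on the ein2 arrays. On ein2 array 2, 57 of the 69 genes were lower than on ein2 array 1. Without ein2 array 2 the median was -0.52 and 7 genes fell, without ein2 array 1 it was -1.14 with 29, and without green array 1 it was -0.70 with 13. Scaled to the hybridisation controls the median was -0.30 and 1 gene fell. By complex, the medians ran from -0.61 for the 5 genes of photosystem I to -1.07 for the 4 of the plastid RNA polymerase, with -0.73 for 15 of photosystem II, -0.91 for 10 of the ndh complex and -0.95 for 15 ribosomal genes. The ndh genes encode an NADH dehydrogenase-like complex of the thylakoid. The largest falls were those of atpF, an ATP synthase subunit, from 1991 and 1692 to 777 and 385 (-1.72 ± 0.57), and of rpl14, a ribosomal protein, from 667 and 535 to 278 and 110.0 (-1.67 ± 0.42). Neither call held throughout, since atpF without green array 1, green array 2 or ein2 array 2 (adjusted p from 0.0752 to 0.238) and rpl14 without ein2 array 2 (adjusted p = 0.113, log2 difference -1.06 without ein2 array 2) did not pass. The Rubisco large subunit gene rbcL gave 1925 and 1321 in green leaves and 1330.5 and 783 in ein2, where the groups overlap, and did not pass (-0.64 ± 0.33).

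**Figure D3:**
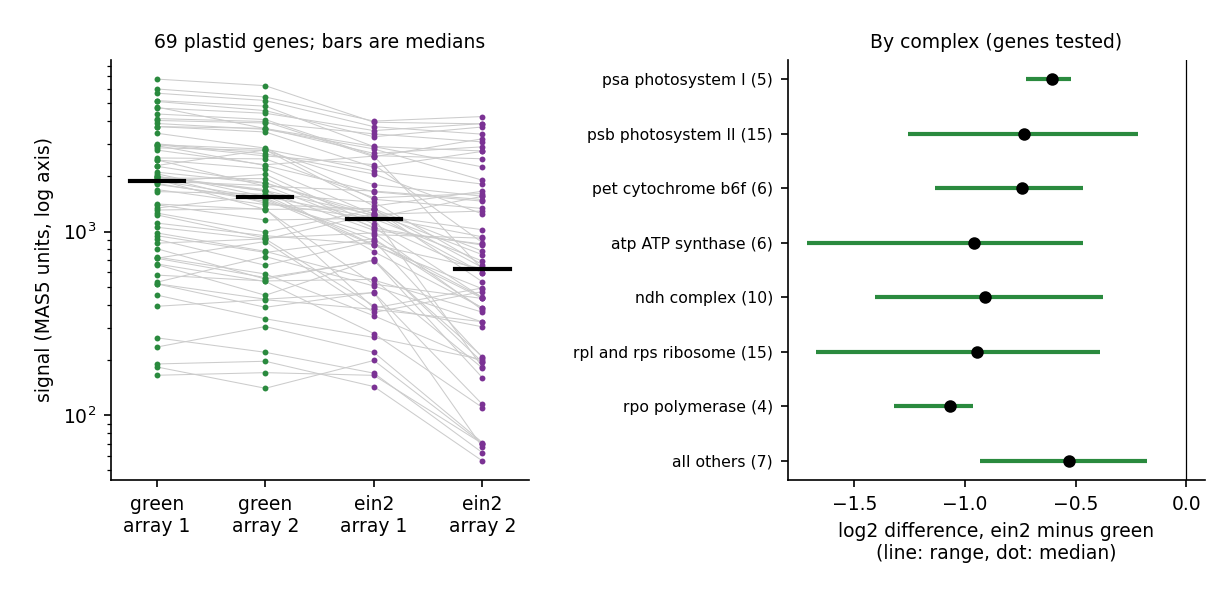
Left, signals of the 69 tested plastid genes on each array in MAS5 units on a log axis, with a grey line per gene and bars at the medians, which fall from 1884 and 1551 on the green arrays to 1175 and 627 on the ein2 arrays. Right, the log2 difference of ein2 minus green wild type by complex, with the range as a line and the median as a dot, all below 0.

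Among regulators and markers of senescence 3 of 5 measured genes rose and none fell, with a median of 1.07, where 17.3% of all tested genes rose. WRKY6, a transcription factor induced in senescing and attacked leaves, gave 1.41 and 3.93 on the green arrays and 128 and 137 on the ein2 arrays. Its green values are near 0 and its ein2 values agree closely (2.996 ± 0.19; limma adjusted p = 2.54e-06). WRKY53, an early regulator of leaf senescence, went from 114 and 65.0 to 181 and 218 (1.07 ± 0.23). SAG29, a sugar transporter of the SWEET family that marks senescing leaves, went from 8.67 and 15.9 to 85.0 and 91.5 (1.89 ± 0.52), and SAG29 is a low signal whose difference was 0.998 with 64 added before taking logs. SAG101, a lipase-like protein of defence and senescence, stood at 64.9 and 37.9 and 64.3 and 57.0 and did not pass (0.21 ± 0.22). YLS5, named for yellow leaves, did not pass (0.06 ± 0.24). The call of SAG29 without green array 1, ein2 array 1 or ein2 array 2 (adjusted p from 0.0605 to 0.0822) was lost.

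Autophagy transcripts rose in 8 of 10 measured genes, against 17.3% of all tested genes, with a median of 1.17. ATG8 proteins are small ubiquitin-like coats of the autophagosome. ATG8B gave 82.0 and 76.8 in green leaves and 272 and 499 in ein2 (2.01 ± 0.27), and APG8A gave 244 and 172 and 664 and 1128 (1.996 ± 0.29). For both, ein2 array 2 is the brighter ein2 array and every ein2 value exceeds every green value, as for every probe set that rose. ATG8G changed by 1.32 ± 0.25, ATG8D by 1.24 ± 0.30, ATG8H by 1.21 ± 0.41, APG8H by 1.12 ± 0.25 and ATG8C by 0.82 ± 0.24. Despite their names, APG8H and ATG8H are separate genes in the annotation. ATG3, the enzyme that couples ATG8 to lipid, went from 213 and 185 to 353 and 488 (1.01 ± 0.20). The brightest gene of the group, ATG8F, stood at 1779 and 1319 against 1634 and 1988 and did not pass (0.23 ± 0.22), nor did ATG8E (0.76 ± 0.36). Without ein2 array 2 the median was 0.85 and 4 of the 10 rose. The calls of ATG8C without green array 2 or ein2 array 2 (adjusted p from 0.0931 to 0.187, log2 difference 0.51 without ein2 array 2), ATG8D without green array 1 or ein2 array 2 (adjusted p from 0.055 to 0.0743), ATG8H without green array 1, green array 2 or ein2 array 2 (adjusted p from 0.0821 to 0.304, log2 difference 0.70 without ein2 array 2) and APG8H without ein2 array 2 (adjusted p = 0.0558) were lost.

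Of 6 measured vacuolar proteases and their inhibitors 3 rose and 0 fell, with a median of 0.79, while 17.3% of all tested genes rose. Vacuolar processing enzymes are cysteine proteases that mature other vacuolar proteins. GAMMA-VPE, their main form in vegetative organs, gave 1211 and 1675 in green leaves and 4295 and 4988 in ein2 (1.69 ± 0.23; limma adjusted p = 0.000252), among the brightest signals named here. BETA-VPE went from 34.3 and 35.2 to 249 and 209.7 (2.27 ± 0.18), and APA1, an aspartic protease, from 1355 and 1292 to 2641 and 2415 (0.92 ± 0.21). ALPHA-VPE stayed under a signal of 25 on all 4 arrays and did not pass (0.62 ± 0.31). The protease inhibitors CYS1 (0.66 ± 0.24) and SERPIN1 (0.22 ± 0.16) did not pass.

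All 4 measured genes of nitrogen and nutrient remobilisation, of 100 on the list, rose, with a median of 1.34, where 17.3% of all tested genes rose. NRT2.5, a high-affinity nitrate transporter, gave 13.9 and 22.3 on the green arrays and 147 and 160.0 on the ein2 arrays (2.32 ± 0.23; limma adjusted p = 3.01e-05). ALN and AAH degrade the purine products allantoin and allantoate. ALN went from 72.1 and 47.4 to 189.6 and 163 (1.36 ± 0.25), and AAH from 56.2 and 45.7 to 96.8 and 82.4 (0.66 ± 0.19). PPDK, a pyruvate dikinase linked with nitrogen export from old leaves, went from 275 and 165 to 561 and 546 (1.31 ± 0.23). In each of the 4 genes both ein2 arrays lay above both green arrays, and 65.6% of all tested probe sets had groups without overlap. Of 3 lipid breakdown genes, AIM1, a peroxisomal enzyme of beta-oxidation, rose (0.62 ± 0.19), and the triacylglycerol lipase SDP1 did not pass (0.23 ± 0.23). The calls of AAH without green array 2 or ein2 array 1 (adjusted p from 0.104 to 0.11) and AIM1 without green array 1 or ein2 array 1 (adjusted p from 0.114 to 0.188) were lost. The proteasome subunit RPN12a (0.08 ± 0.18) and the ribosomal protein PGY1 (-0.37 ± 0.18) did not pass.

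**Figure D4:**
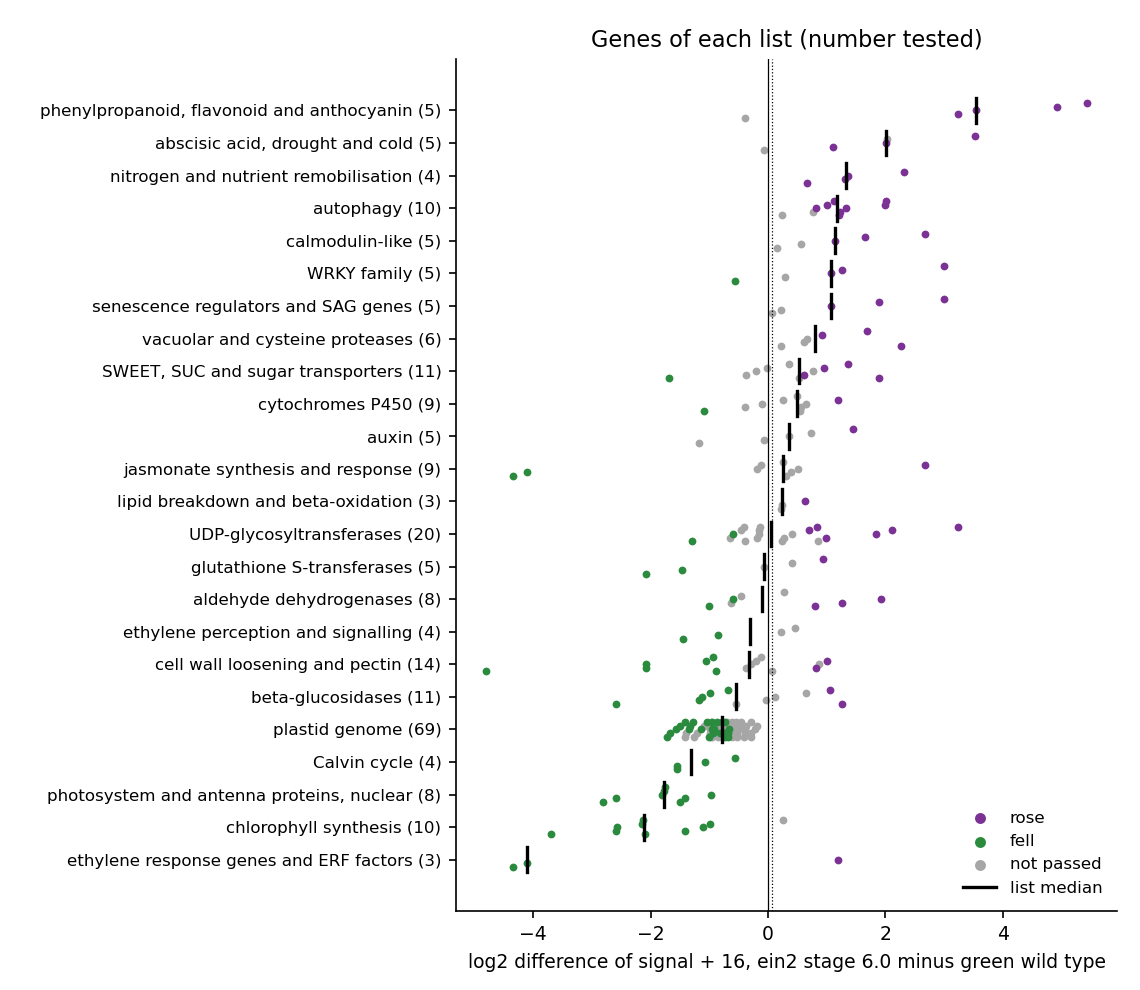
Log2 difference of ein2 at stage 6.0 minus green wild type for every tested gene of the lists with at least 3 tested genes, 1 point a gene, purple where it rose, green where it fell and grey where it did not pass. Black bars are list medians, from 3.54 for anthocyanin synthesis to -4.11 for ethylene response genes. That last list held 3 tested genes, the defensins PDF1.2, PDF1.2b and PDF1.4, and its median is the value of PDF1.2. It was -2.70 without green array 1. The dotted line is the median of all tested genes, 0.06.

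Of 4 measured genes of ethylene perception and signalling 2 fell and 0 rose, where 15.2% of all tested genes fell and 17.3% rose. The list holds 30 genes in the annotation, and its median of -0.31 became 0.12 when scaled to the hybridisation controls. EIN3, the transcription factor below EIN2, gave 307 and 302 in green leaves and 474 and 385 in ein2, higher on both ein2 arrays without passing (0.47 ± 0.18; limma adjusted p = 0.0703). RTE1, a protein that keeps the receptor ETR1 active and so restrains the response, gave 108 and 95.5 on the green arrays and 51.0 and 48.1 on the ein2 arrays. These groups are each tight and do not overlap (-0.84 ± 0.17; adjusted p = 0.00319). Its homologue RTH did not pass (0.23 ± 0.19). ARL, a relative of the ARGOS proteins that affect organ growth and ethylene sensitivity, went from 289.9 and 133 to 70.3 and 55.9 (-1.44 ± 0.28), with -0.92 without green array 1. Scaled to the hybridisation controls, neither RTE1 (-0.42) nor ARL (-0.98) passed.

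The defensin genes PDF1.2 and PDF1.2b, markers of joint ethylene and jasmonate signalling, had the largest log2 differences among the measured hormone genes. PDF1.2 gave 1277 and 167 on the green arrays and 20.7 and 5.64 on the ein2 arrays. The green arrays differ greatly from each other, Col-0 over Col-5, and the ein2 arrays are near background (-4.11 ± 0.67; limma adjusted p = 0.00083). Without green array 1 the log2 difference was -2.70 and still passed. PDF1.2b, whose probe set can bind related transcripts, gave 1726 and 304 and 25.4 and 16.9 (-4.34 ± 0.58). PDF1.4, of the same family, moved the other way, from 34.2 and 21.7 to 70.2 and 98.7 (1.19 ± 0.24).

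Of 9 measured jasmonate genes, 1 rose and 2 fell, where 17.3% of all tested genes rose and 15.2% fell. The falls were PDF1.2 and PDF1.2b. JRG21, named for its regulation by jasmonate, went from 58.3 and 20.96 to 247 and 405 (2.67 ± 0.48). The transcription factors MYC3 (0.39 ± 0.26) and MYC4 (-0.11 ± 0.20), the synthesis gene OPCL1 (0.31 ± 0.22), the thionin gene THI2.1 (-0.19 ± 0.31), BSMT1 (0.51 ± 0.44) and JAL23 (0.26 ± 0.26) did not pass. Of the salicylic acid genes, SAG101 and GRX480 were measured. GRX480, a glutaredoxin induced by salicylic acid that binds TGA factors, gave 37.7 and 55.8 on the green arrays and 198 and 333 on the ein2 arrays (2.14 ± 0.25; limma adjusted p = 0.000108). Both ein2 arrays exceed both green arrays, array 2 the more.

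Dehydrins and other cold and drought genes rose in 3 of 5 cases, with a median of 2.005, against 17.3% of all tested genes. LTI30, a dehydrin, gave 115 and 88.6 in green leaves and 1197 and 1468 in ein2 (3.52 ± 0.28; limma adjusted p = 8.75e-06). COR47, another dehydrin, went from 477 and 899.8 to 2477 and 2902 (2.005 ± 0.27). COR15A, a chloroplast protectant, went from 507 and 1381 to 1965 and 1709.6 (1.11 ± 0.38). Its neighbour in function COR15B, at 592 and 1702 against 902 and 1024, overlaps between the groups and did not pass (-0.07 ± 0.37). COR27, regulated by cold and the clock, split the green arrays, at 10.9 and 399, and gave 351 and 492 in ein2 without passing (2.03 ± 0.88). COR47, COR15A, COR15B and COR27 were all lower in green array 1 than in green array 2, and without green array 1 the list median was 0.40 with 2 rises and 1 fall. GI, the clock protein GIGANTEA, differed between the green arrays too, at 80.7 and 219, against 378 and 314 in ein2 (1.26 ± 0.37), and its difference was 0.62 without green array 1 and 1.90 without green array 2. The calls of GI without green array 1, ein2 array 1 or ein2 array 2 (adjusted p from 0.067 to 0.156) and COR15A without green array 1, ein2 array 1 or ein2 array 2 (adjusted p from 0.108 to 0.304, log2 difference 0.40 without green array 1 and 1.82 without green array 2) were lost.

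Of the growth hormone lists, 2 of 74 cytokinin genes and 5 of 102 auxin genes were measured. RR16, a response regulator induced by cytokinin, went from 109 and 253 to 45.4 and 59.4 (-1.43 ± 0.41), and the cytokinin glucosyltransferase gene UGT76C1 did not pass (-0.13 ± 0.24). GH3.3, which conjugates auxin to amino acids, went from 15.1 and 4.64 to 42.1 and 66.7 (1.45 ± 0.33). IAA18 (0.36 ± 0.19), IAA29 (-1.18 ± 0.42), YUC2 (-0.08 ± 0.24) and GH3.17 (0.73 ± 0.31) did not pass. The calls of RR16 without green array 2, ein2 array 1 or ein2 array 2 (adjusted p from 0.0618 to 0.146, log2 difference -0.88 without green array 2) and GH3.3 without ein2 array 2 (adjusted p = 0.0607) were lost.

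Of 14 measured cell wall genes 6 fell and 2 rose, where 15.2% of all tested genes fell and 17.3% rose, with a median of -0.33 that became 0.06 when scaled to the hybridisation controls, with 3 falls and 3 rises. EXPA8, an expansin that loosens growing walls, gave 765 and 559 on the green arrays and 2.72 and 14.8 on the ein2 arrays. Its ein2 values are near 0, and it lies among the 10 largest falls of probe sets that name 1 gene (-4.80 ± 0.30; limma adjusted p = 2.19e-06). CSLC04, which makes the backbone of xyloglucan, went from 541 and 376 to 106 and 84.7 (-2.08 ± 0.22), and XTH32, a xyloglucan endotransglucosylase, from 304 and 187 to 49.3 and 40.0 (-2.07 ± 0.25). EXLB1, an expansin-like gene, rose (1.01 ± 0.28), as did the cellulose synthase-like gene CSLD2 (0.82 ± 0.21). XTH19 (-1.05 ± 0.35), CSLC5 (-0.93 ± 0.24) and EXPA15 (-0.89 ± 0.30) fell from lower signals. The calls of EXLB1 without green array 1 or ein2 array 2 (adjusted p from 0.05 to 0.155, log2 difference 0.62 without ein2 array 2), CSLD2 without green array 2 or ein2 array 1 (adjusted p from 0.0646 to 0.0672), XTH19 without green array 2 or ein2 array 1 (adjusted p from 0.192 to 0.318), CSLC5 without ein2 array 2 (adjusted p = 0.0911) and EXPA15 without green array 1, green array 2 or ein2 array 2 (adjusted p from 0.102 to 0.349, log2 difference -1.38 without ein2 array 1 and -0.39 without ein2 array 2) were lost.

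Of 11 measured sugar transporters 4 rose and 1 fell, with a median of 0.53, where 17.3% of all tested genes rose and 15.2% fell. Leaving out either of the ein2 arrays left 1 rise. SWEET17, a fructose transporter of the vacuole, gave 471 and 249.8 in green leaves and 113 and 80.6 in ein2 (-1.69 ± 0.30), while SWEET4 went from 62.6 and 51.3 to 182 and 161 (1.36 ± 0.19). SWEET1 (0.61 ± 0.19), SWEET14 (0.95 ± 0.28) and SAG29, whose call was lost on leaving out single arrays as given above, were the other rises. TMT1 (-0.38 ± 0.26) and TMT2 (0.77 ± 0.30), sugar importers of the vacuole, did not pass. Of these, SWEET1 without green array 1, green array 2, ein2 array 1 or ein2 array 2 (adjusted p from 0.0512 to 0.124) and SWEET14 without green array 2, ein2 array 1 or ein2 array 2 (adjusted p from 0.0759 to 0.173, log2 difference 0.48 without green array 2) lost their calls.

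Calcium sensors of the calmodulin-like family rose in 3 of 5 cases and fell in none, against 17.3% and 15.2% of all tested genes. CML41 went from 96.4 and 80.4 to 529.6 and 800.4 (2.68 ± 0.32), CML23 from 8.37 and 5.44 to 51.8 and 60.2 (1.65 ± 0.32) and CML38 from 17.8 and 17.6 to 49.6 and 68.1 (1.14 ± 0.29). Of 5 WRKY genes 3 rose, which were WRKY6, WRKY53 and WRKY47 (1.25 ± 0.19), and WRKY20 fell (-0.56 ± 0.20). The calls of CML38 without ein2 array 2 (adjusted p = 0.0891) and WRKY20 without green array 1, ein2 array 1 or ein2 array 2 (adjusted p from 0.0882 to 0.273, log2 difference -0.32 without green array 1) were lost.

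Enzyme families held genes that rose and genes that fell, as did all tested genes with 17.3% and 15.2%. Among 8 aldehyde dehydrogenases 3 rose and 2 fell: ALDH7B4, which is known as turgor-responsive, went from 321 and 274 to 1189 and 1154 (1.93 ± 0.19), ALDH6B2, of valine breakdown, from 229 and 287 to 644 and 633 (1.26 ± 0.17), and ALDH3F1 from 304 and 348 to 166 and 143 (-1.01 ± 0.19), with ALDH10A8 the other fall (-0.59 ± 0.20). Scaled to the hybridisation controls 3 aldehyde dehydrogenases rose and 0 fell. Among 5 glutathione S-transferases, GSTU20 (-2.07 ± 0.32) and GSTU18 (-1.47 ± 0.18) fell and GSTU16 rose (0.94 ± 0.25). Beta-glucosidases fell in 5 of 11 cases and rose in 2, and the strongest, BGLU44, went from 1943 and 1716 to 321 and 260.2 (-2.59 ± 0.20), followed by BGLU40 (-1.17 ± 0.27). The rises were BGLU31 (1.26 ± 0.29) and BGLU45 (1.06 ± 0.36), both from signals under 20. Scaled to the hybridisation controls 1 beta-glucosidase fell and 2 rose, and 0 rose without green array 2, without ein2 array 2 or in a fit to the 4 arrays alone. Among 20 UDP-glycosyltransferases 6 rose and 2 fell: UGT73D1, at 7.46 and 2.72 in green leaves, reached 77.8 and 71.8 (2.11 ± 0.23), and UGT88A1, at 1099.6 and 416, came to 268 and 264 (-1.30 ± 0.35), with UGT71C4 the other fall (-0.59 ± 0.20). Neither fall passed on leaving out green array 1 or either of the ein2 arrays, or when scaled to the hybridisation controls. Of 9 cytochromes P450 CYP71B23 rose (1.19 ± 0.30) and CYP71B22 fell (-1.09 ± 0.37). The calls of GSTU16 without green array 2 or ein2 array 2 (adjusted p from 0.0636 to 0.112), UGT88A1 without green array 1, ein2 array 1 or ein2 array 2 (adjusted p from 0.0592 to 0.073, log2 difference -0.62 without green array 1 and -1.99 without green array 2), CYP71B23 without green array 2 or ein2 array 2 (adjusted p from 0.0667 to 0.0758, log2 difference 0.68 without green array 2), CYP71B22 without green array 1, ein2 array 1 or ein2 array 2 (adjusted p from 0.0629 to 0.296, log2 difference -0.50 without green array 1 and -1.67 without green array 2), ALDH10A8 without green array 2, ein2 array 1 or ein2 array 2 (adjusted p from 0.114 to 0.188), BGLU31 without green array 2 or ein2 array 2 (adjusted p from 0.0544 to 0.0749), BGLU45 without green array 2, ein2 array 1 or ein2 array 2 (adjusted p from 0.0564 to 0.252, log2 difference 0.68 without green array 2) and UGT71C4 without green array 1, ein2 array 1 or ein2 array 2 (adjusted p from 0.0614 to 0.254, log2 difference -0.33 without green array 1) were lost. BGLU40 was -0.75 without green array 2.

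Many of the largest differences belong to genes known here by locus code alone, whose functions the tables do not give. The lists above were matched by gene name, so such loci may include list members that were not counted there. Of the 10 highest rises among probe sets that name 1 gene, 7 are such loci. AT5G39520 went from 36.4 and 38.9 to 1831 and 2709 (5.39 ± 0.26), AT4G14090 from 0.807 and 3.12 to 769 and 623 (5.30 ± 0.28) and AT1G05340 from 29.2 and 1.91 to 712 and 1226 (5.06 ± 0.41). All 3 were near background on the green arrays. AT3G61930 (4.52 ± 0.42), AT2G44240 (4.42 ± 0.48), AT3G18250 (4.17 ± 0.33) and AT2G25625 (4.02 ± 0.29) follow, with HIS1-3, a linker histone induced by drought, from 80.5 and 71.2 to 1285 and 1617 (3.99 ± 0.30). Of the 10 largest falls among the same probe sets, 7 are such loci: AT2G10940, from 1397 and 1370.2 to 10.7 and 26.0 (-5.39 ± 0.25), leads them. AT5G22580 (-4.60 ± 0.34), AT1G21500 (-4.52 ± 0.29), AT5G63180 (-4.26 ± 0.19), AT1G09750 (-4.23 ± 0.24), AT3G16370 (-4.15 ± 0.21) and AT1G29660 (-3.84 ± 0.30) all went from signals above 500 in green leaves to under 150 in ein2.

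Some probe sets were bright in both groups, with means of at least 200. The highest rises among those that name 1 gene were AT1G64360, from 389 and 254 to 1799 and 2606 (2.72 ± 0.28), AT1G21000 (2.67 ± 0.30), AT5G61820 (2.67 ± 0.25), AER (2.41 ± 0.24), AT1G67360 (2.202 ± 0.21) and AT5G18130 (2.17 ± 0.23). AER is an alkenal reductase that detoxifies products of lipid oxidation. Their largest falls were PORB, AT5G02160 (-3.26 ± 0.22), AT1G51400 (-3.07 ± 0.21), AT3G11630 (-2.97 ± 0.17), AT1G29070 (-2.96 ± 0.18) and LHCB4.2. AT5G02160 went from 2266 and 2022 to 214 and 205, with both arrays of each group close together.

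Leaves of NahG, which carry a bacterial enzyme that degrades salicylic acid, and of coi1, a mutant insensitive to jasmonate, were sampled at stage 6.0 too, with 2 arrays each. Of the 2242 probe sets that rose in ein2, 1179 also passed as higher than green wild type in both NahG and coi1. List medians against green wild type were 1.89 in NahG and 3.13 in coi1 for anthocyanin, and 0.87 and 0.79 for autophagy. They were 0.76 and 1.64 for nitrogen and 1.92 and 1.68 for cold and drought. They were -1.38 and -1.32 for photosystems, -1.12 and -0.61 for the Calvin cycle and -1.80 and -1.59 for chlorophyll synthesis. Those of senescence genes were -0.09 and 0.45. The differences of NahG and coi1 from green wild type share the green arrays with that of ein2, so ein2 was tested against each of them directly. Against NahG, 510 probe sets were higher in ein2 (4.19%) and 407 lower (3.34%), which became 176 and 227 when scaled to the hybridisation controls. Leaving out single arrays gave 383 to 599 calls in all against NahG.

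Both measured defensin genes with lowered signals in ein2, PDF1.2 and PDF1.2b, stood far higher in NahG. PDF1.2 gave 4246 and 4021 on the NahG arrays against 20.7 and 5.64 on the ein2 arrays (-7.20 ± 0.67 for ein2 minus NahG; limma adjusted p = 7.2e-05), and PDF1.2b gave 3298 and 3037 against 25.4 and 16.9 (-6.43 ± 0.58). For both defensins the NahG arrays lay above and the ein2 arrays below both green arrays. OSM34, an osmotin-like protein, gave 1682 and 1507 in NahG and 62.7 and 81.2 in ein2 (-4.20 ± 0.30), AT4G16260 gave 1554 and 1398 and 27.1 and 55.4 (-4.75 ± 0.41) and AT2G19970 269 and 319.7 and 4.13 and 1.71 (-4.03 ± 0.28). SAG29 stood at 994 and 794 in NahG, above the 85.0 and 91.5 of ein2 (-3.12 ± 0.52), a call lost for SAG29 without NahG array 1 (adjusted p = 0.0521).

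On the other side, AT5G03350 gave 1.51 and 0.906 in NahG and 1747 and 1853 in ein2 (6.72 ± 0.31; limma adjusted p = 5.08e-07), a level in ein2 within the range of the green arrays, 2460.0 and 1325. AT2G44240 (5.66 ± 0.48), AT1G19960 (4.84 ± 0.26), AT2G41090 (4.54 ± 0.32) and AT5G55450 (4.50 ± 0.36) were likewise far higher in ein2. GRX480 stood at 40.9 and 30.5 in NahG (2.41 ± 0.25), WRKY53 at 26.4 and 32.1 (2.25 ± 0.23), UGT73D1 at 2.92 and 3.12 (2.25 ± 0.23) and NRT2.5 at 41.3 and 41.8 (1.56 ± 0.23), all lower than in ein2. Of the 5 anthocyanin genes 3 were higher in ein2 than in NahG, where 3.9% of all tested genes were (2.87% were lower): UGT78D2 (1.35 ± 0.22), CHIL (1.98 ± 0.24) and DFR (0.91 ± 0.21). The ethylene pathway genes ARL (-1.67 ± 0.28) and RTE1 (-0.80 ± 0.17) were lower in ein2 than in NahG. The calls of DFR without NahG array 1, NahG array 2, ein2 array 1 or ein2 array 2 (adjusted p from 0.1 to 0.15), RTE1 without NahG array 1, NahG array 2, ein2 array 1 or ein2 array 2 (adjusted p from 0.0658 to 0.104) and ARL without ein2 array 2 (adjusted p = 0.0515) were lost.

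Against coi1, 42 probe sets were higher in ein2 (0.345%) and 44 lower (0.361%) at the adjusted threshold, and 1962 had an unadjusted p under 0.05. Counted on these 4 arrays alone the calls were 254 and 321, and on leaving out single arrays 11 to 23 in all. AT5G05600 gave 8.04 and 8.86 on the coi1 arrays, 239 and 295 on the ein2 arrays and 143 and 74.8 on the green arrays (3.53 ± 0.31 for ein2 minus coi1; limma adjusted p = 0.000791). JRG21 followed the same order, with 6.13 and 6.85 in coi1 (3.89 ± 0.48). AT2G43530 (2.79 ± 0.22), AT1G52000 (2.301 ± 0.21) and AT3G50280 (2.11 ± 0.26) were higher in ein2 as well. AT3G49400 (-2.22 ± 0.32), AT5G22460 (-1.85 ± 0.24), LHCB4.3 (-1.41 ± 0.27), AT3G50790 (-1.35 ± 0.25) and AT1G20070 (-1.16 ± 0.20) were lower. PDF1.2 was near background in both mutants, at 7.74 and 16.3 in coi1 (0.03 ± 0.67; adjusted p = 0.989). The calls of JRG21 without coi1 array 1, coi1 array 2 or ein2 array 2 (adjusted p from 0.0648 to 0.0763), AT3G50280 without coi1 array 1 (adjusted p = 0.0629), AT3G49400 without ein2 array 1 or ein2 array 2 (adjusted p from 0.0668 to 0.104), AT5G22460 without coi1 array 1, coi1 array 2 or ein2 array 1 (adjusted p from 0.0529 to 0.104), LHCB4.3 without coi1 array 1, coi1 array 2, ein2 array 1 or ein2 array 2 (adjusted p from 0.148 to 0.315), AT3G50790 without coi1 array 1, coi1 array 2, ein2 array 1 or ein2 array 2 (adjusted p from 0.0659 to 0.309) and AT1G20070 without coi1 array 1, coi1 array 2, ein2 array 1 or ein2 array 2 (adjusted p from 0.075 to 0.301) were lost.

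Against both mutants at once, 9 probe sets were higher in ein2 and 11 lower, and 10 of these 20 name 1 gene. Higher were GRX480, with 48.3 and 50.8 in coi1 (2.06 ± 0.25), the methionine sulfoxide reductase gene MSRB9 (1.68 ± 0.28 against NahG and 1.46 ± 0.28 against coi1), ZW9, AT2G39420, AT3G09960, AT3G50280 and AT5G62130. Lower were AT3G11630, AT5G22460 and AT1G20070. Each of the 10 lost its call against coi1 on leaving out at least 1 of the arrays, and 5 held against NahG throughout. The ein2 arrays stood at 198 and 333 for GRX480, and all green, NahG and coi1 arrays under 60. The calls against coi1 of GRX480 without coi1 array 1, coi1 array 2 or ein2 array 2 (adjusted p from 0.0533 to 0.0763) and MSRB9 without coi1 array 1, coi1 array 2, ein2 array 1 or ein2 array 2 (adjusted p from 0.134 to 0.331) were lost. AT3G11630 fell in all 3 genotypes and furthest in ein2, with 2654 and 3024 on the green, 357 and 338 on the ein2, 708 and 659.5 on the NahG and 742 and 684 on the coi1 arrays.

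**Figure D5:**
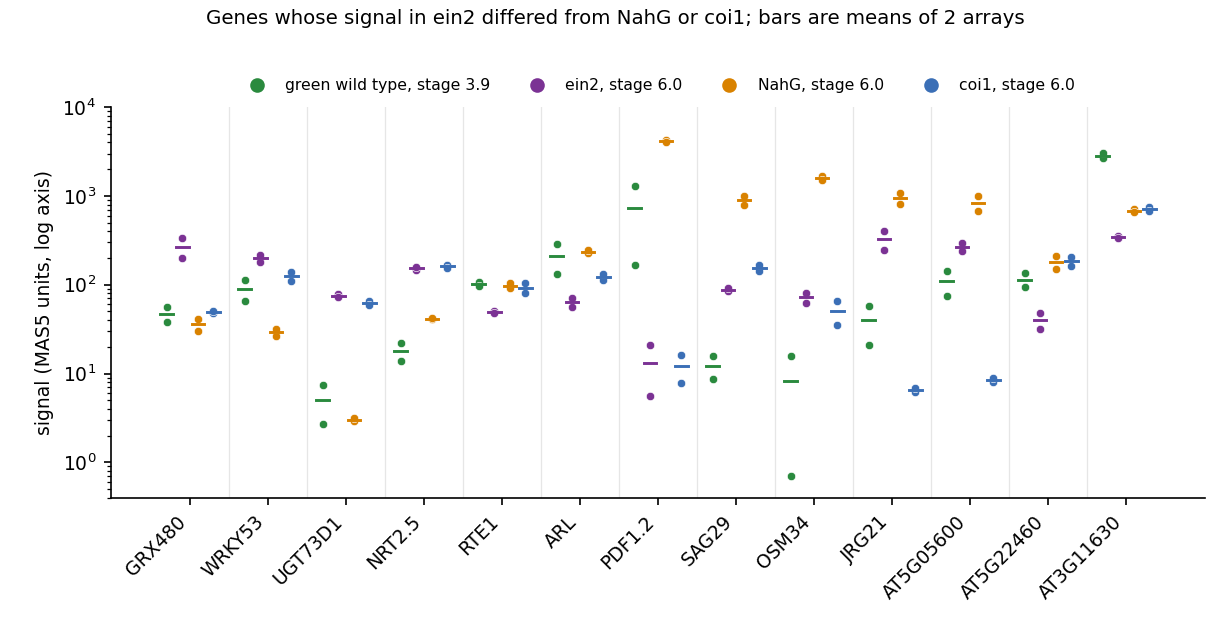
Signals of 13 genes on the arrays of green wild type (green), ein2 (purple), NahG (orange) and coi1 (blue) in MAS5 units on a log axis, with bars for the means of 2 arrays. GRX480 is highest and RTE1 lowest in ein2, and PDF1.2 is near background in ein2 and coi1 and at 4246 and 4021 in NahG. RTE1 did not pass against coi1 (-0.72 ± 0.17 log2 for ein2 minus coi1, limma adjusted p = 0.0919).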

How the data were processed

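Leaf RNA was measured on 10 arrays in 5 groups of 2. The deposited intensity values are linear MAS5 signals, per the submitters' processing notes, without detection calls, and each array as deposited has a 2% trimmed mean of 100. A version of MAS5 was not found in the labels used here. The 64 control probe sets were dropped and the trimmed mean was set to 100 again on each array. A probe set stayed if at least 2 arrays reached 50. limma 3.58.1 in R 4.3.3 (lmFit, eBayes with trend) was fitted to log2(signal + 16) over all 10 arrays and 5 groups; the stage 6.0 wild type arrays enter only the filter and the shared spread, with 5 residual and 5.74 prior degrees of freedom. The median standard error of a difference was 0.21, and 2 arrays a group limit the precision. The added 16 shrinks differences of low signals. The procedure was tested on simulated data. Tables were made with pandas 2.3.3 and numpy 2.4.6 in python 3.11.15, figures with matplotlib 3.10.9.

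Gene names are those of the probe table given for the platform, with TAIR10.1 symbols: 13513 probe sets name 1 gene, 503 several and 8730 none. Of several probe sets for a gene (35 genes, 0 with opposite calls) the brightest was used. The members and lists were chosen with earlier results of these data known. Among probe sets that name 1 gene, the text names the 10 largest rises and 10 largest falls that passed without overlap, 6 and 6 with means of at least 200, up to 2 rises and 2 falls a list, 5 and 5 against NahG and coi1, and a fixed set; other list members were added for completeness.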

Additional observations from a re-analysis of the deposited data

Results flagged for a closer look

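These genes differed between ein2 and another genotype of stage 6.0 by the direct test of the difference, given as log2 of ein2 minus the other. Against NahG, AT5G03350 was higher by 6.72, AT2G44240 by 5.66, AT1G19960 by 4.84, AT2G41090 by 4.54 and AT5G55450 by 4.50. Lower than in NahG were PDF1.2 at -7.20, PDF1.2b at -6.43, AT4G16260 at -4.75, OSM34 at -4.20 and AT2G19970 at -4.03. Against coi1, JRG21 was higher by 3.89, AT5G05600 by 3.53, AT2G43530 by 2.79, AT1G52000 by 2.301 and AT3G50280 by 2.11. Lower than in coi1 were AT3G49400 at -2.22, AT5G22460 at -1.85, LHCB4.3 at -1.41, AT3G50790 at -1.35 and AT1G20070 at -1.16. These genes were chosen as the largest differences among probe sets that name 1 gene, some unnamed probe sets differed more, and their sizes are a description. The 10 against NahG passed on leaving out any 1 array. Of those against coi1, AT5G05600, AT1G52000 and AT2G43530 did so too, and JRG21, AT3G50280, AT3G49400, AT5G22460, LHCB4.3, AT3G50790 and AT1G20070 did not.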

How the results depend on the processing

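The ein2 count of 4205 probe sets became 2256 (1809 rises, 447 falls) when scaled to the hybridisation controls, and ranged from 2611 to 3585 on leaving out single arrays. The count of 917 against NahG became 403 (176 higher, 227 lower) with the hybridisation controls, and ranged from 383 to 599. The count of 86 against coi1 became 43 without the filter, 291 with array weights and 575 in a fit to these 4 arrays alone, and ranged from 11 to 23. Other added values, the stricter filter, quantile normalization, the deposited scale, no stage 6.0 wild type arrays and no trend each kept these 3 counts within 1.5 times. In a group left with 1 array that array is assumed to vary like the other groups. No named gene that passed changed sign under any setting. Of 98 named genes that passed against green wild type, 66 passed under each alternative, 23 were lost on leaving out an array and 20 were lost with the hybridisation controls, ARL, RTE1, RCA, ATPC1 and HPR among them. SAG29, ATG8H and BGLU45 did not pass with 64 added. On the hybridisation scale, 7 list medians turned positive: electron transport (0.01), ethylene perception (0.12), cell wall (0.06), cytosolic ribosomal proteins (0.12), glutathione S-transferases (0.38), aldehyde dehydrogenases (0.32) and beta-glucosidases (0.11), all below the median of 0.46 of all probe sets on that scale. On leaving out single arrays, the small medians of aldehyde dehydrogenases, glutathione S-transferases, the proteasome, jasmonate, beta-oxidation and UDP-glycosyltransferases changed sign, and that of auxin did in the fit to these 4 arrays. The cause was not tested. Detection calls were not used here, so signals near background are uncertain. No paired analysis was possible because the wild type arrays carry stock names and no replicate numbers.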

Other observations

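Gene families formed from the letters of gene symbols, outside the lists above, gave further changes between green wild type and ein2, and they were picked after their values were seen. Of 5 tubulin genes, which build the microtubules, 4 fell and 0 rose, with a median of -1.54, where 15.2% of all tested genes fell. TUB6 gave 267 and 326 on the green arrays and 98.02 and 82.9 on the ein2 arrays (-1.55 ± 0.20 log2 in limma), and TUB1 gave 51.0 and 67.7 and 13.3 and 14.3 (-1.33 ± 0.27). Of 5 genes for RALF-like signal peptides 3 fell, and RALFL34 gave 608 and 659 and 68.0 and 51.4 (-3.11 ± 0.19). Scaled to the hybridisation controls, TUB6, TUB7, RALFL24 and RALFL31 did not pass, and RALFL24 and RALFL31 were also lost on leaving out single arrays. Of 10 TBL genes, for proteins that acetylate wall polymers, 3 fell and 1 rose: TBL45 gave 146 and 119 and 25.7 and 12.1 (-2.11 ± 0.29), and TBL38 gave 72.6 and 50.5 and 399 and 419 (2.47 ± 0.18). TBL25 did not pass when scaled to the hybridisation controls, and TBL36 not on leaving out single arrays.

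Vesicle sorting genes of the VPS family rose in 4 of 8 cases and fell in 0, with a median of 0.69, where 17.3% of all tested genes rose. None of these 4 passed without ein2 array 2. Of 5 BZIP transcription factor genes 3 rose: BZIP60 gave 326 and 219.7 on the green arrays and 616 and 798 on the ein2 arrays (1.34 ± 0.22), BZIP53 also rose under every setting tried, and BZIP24 did not pass on leaving out 2 of the arrays in turn. Among 10 ubiquitin protease genes of the UBP family 0 rose and 0 fell, within -0.41 and 0.42.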
